A study of Homo sapiens with 16 samples.

Results

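The genes described are 41 genes of S-phase DNA replication, from the MCM helicase and the factors that load it to the polymerases, the sliding clamp and the enzymes that supply nucleotides. They were picked by gene symbol, for their known roles, from 60658 gene entries per table. Each symbol was found once in each of 4 tables, and all 41 genes were tested by the authors in every table. Their messages were measured by RNA-seq in a human triple-negative breast cancer line, MDA-MB-231, in which BMAL1 (gene symbol ARNTL) was knocked out (KO) or left intact (WT). BMAL1 pairs with CLOCK to form the activator at the centre of the circadian clock.

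DNA replication is prepared before S phase, when the origin recognition complex, CDC6 and CDT1 load the MCM helicase onto origins, while geminin (GMNN) blocks CDT1 once replication has begun. CDC45 and the GINS complex then turn the loaded helicase into the active CMG helicase, polymerase alpha with primase starts each strand, and polymerases epsilon and delta extend it with the clamp PCNA. Most of these genes are known targets of the E2F transcription factors, which switch them on in late G1, so their messages are commonly read as a mark of cells entering or passing S phase.

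The groups were BMAL1 KO cells under cisplatin, doxorubicin, tunicamycin and control, and WT cells under the same treatments, with 2 biological replicates in each of the 8 groups and 16 samples in all. Cisplatin crosslinks DNA, doxorubicin intercalates into DNA and poisons topoisomerase II, and tunicamycin stops N-glycosylation and so burdens the endoplasmic reticulum. For doses and exposure times no source used here gives a value, cells of both genotypes are labelled as passage 10 to 15, and the labels name neither a clone nor the edit that made the KO. A difference between KO and WT cells and a difference between cell clones or cultures cannot be told apart. The authors deposited a single FPKM value for each group (fragments per kilobase and per 1e6 fragments), so no spread between the replicates can be given. A gene is said to have risen or fallen in KO cells where the authors' q-value for KO against WT was at most 0.05. Drug and control cells of 1 genotype stand in separately normalized tables, so drug responses are given as values with no test.

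ARNTL itself was listed at 0.941 (KO) and 1.26 (WT) FPKM under cisplatin, 0.474 (KO) and 1.31 (WT) under doxorubicin, 2.24 (KO) and 3.25 (WT) under tunicamycin and 0.889 (KO) and 5.67 (WT) in control. In the authors' deposited tables its log2 ratio of KO over WT was -0.42 under cisplatin (q = 0.467), -1.47 under doxorubicin (q = 0.00509), -0.53 under tunicamycin (q = 0.0810) and -2.67 in control (q = 0.000213). The message was thus lower in the KO groups of all 4 tables and passed the threshold under doxorubicin and in control. The mesenchymal marker VIM lay between 2883 and 6640 FPKM in the 8 groups. Of the other markers of a mesenchymal triple-negative line, AXL ran from 237.0 to 821.6 FPKM. CD44 ran from 148.7 to 711.5 and was lower in the KO group of each pair. EGFR ran from 78.9 down to 3.74, its value in KO cells under doxorubicin. Of 8 luminal and epithelial markers the hormone receptor genes ESR1 and PGR were at most 0.196 and at 0. CDH1 was at most 0.349. The keratins KRT8 (402.5 to 738.9 FPKM) and KRT18 (85.03 to 774.6) were high, ERBB2 reached 25.5, EPCAM 6.33 and GATA3 5.48 FPKM. The extraction protocol speaks of fibroblasts where other labels name MDA-MB-231, but of 9 fibroblast markers DCN was at 0 in every group and LUM, PDGFRA, FAP, THY1, COL1A2 and COL3A1 were at most 0.303 FPKM. COL1A1 reached 9.70 and PDGFRB 6.83. Library depth is unknown, and the 5th percentile of values above 0 ranged from 0.0141 to 0.0388 FPKM over the groups. In KO and WT cells, mitochondrial genes held 3.64% (KO) and 5.15% (WT) of summed FPKM under cisplatin, 11.1% (KO) and 17.0% (WT) under doxorubicin, 3.96% (KO) and 6.94% (WT) under tunicamycin and 3.86% (KO) and 5.35% (WT) in control.

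The promoters of CDC6, MCM2, CDT1, PCNA and FEN1 are shown because they belong to genes with recurring calls or wide responses, and because they carry the letters that E2F factors or the clock factors are known to bind. RefSeq (GRCh38.p14) had a promoter entry for 35 of the 41 genes, each of 300 bases, 250 before and 50 after the start of the gene. GINS4, MCM4, MCM5, POLD3, RPA2 and RPA3 were not matched. An E2F site was searched as TTTCCCGC, TTTCGCGC, TTTGCCGC or TTTGGCGC on both strands, with overlapping matches counted once, and an E-box as CACGTG, the form bound by BMAL1 with CLOCK. The lines give the sequence 5′ to 3′ on the strand of the gene, with an E2F site or an E-box in capitals. They cover chr17:40287629-40287928 (plus strand) for CDC6, chr3:127598161-127598460 (plus strand) for MCM2, chr16:88803539-88803838 (plus strand) for CDT1, chr20:5126573-5126872 (minus strand) for PCNA and chr11:61792661-61792960 (plus strand) for FEN1.
CDC6: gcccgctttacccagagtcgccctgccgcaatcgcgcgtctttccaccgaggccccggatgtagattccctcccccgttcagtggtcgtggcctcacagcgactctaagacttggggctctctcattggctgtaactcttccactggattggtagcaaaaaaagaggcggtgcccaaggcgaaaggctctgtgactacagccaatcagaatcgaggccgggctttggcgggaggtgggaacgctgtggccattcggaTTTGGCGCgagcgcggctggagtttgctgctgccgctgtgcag
MCM2: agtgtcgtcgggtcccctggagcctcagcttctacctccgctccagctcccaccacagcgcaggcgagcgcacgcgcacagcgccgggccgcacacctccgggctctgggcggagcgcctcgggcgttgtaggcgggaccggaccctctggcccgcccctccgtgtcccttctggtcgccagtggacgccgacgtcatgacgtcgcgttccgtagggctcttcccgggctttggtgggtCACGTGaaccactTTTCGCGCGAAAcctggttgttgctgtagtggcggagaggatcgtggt
CDT1: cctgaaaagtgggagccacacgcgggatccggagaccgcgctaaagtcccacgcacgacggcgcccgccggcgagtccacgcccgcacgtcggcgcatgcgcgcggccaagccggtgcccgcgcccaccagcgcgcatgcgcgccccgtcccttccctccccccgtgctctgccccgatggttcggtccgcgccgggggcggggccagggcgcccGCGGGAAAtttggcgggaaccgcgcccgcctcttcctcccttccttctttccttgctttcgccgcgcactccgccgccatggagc
PCNA: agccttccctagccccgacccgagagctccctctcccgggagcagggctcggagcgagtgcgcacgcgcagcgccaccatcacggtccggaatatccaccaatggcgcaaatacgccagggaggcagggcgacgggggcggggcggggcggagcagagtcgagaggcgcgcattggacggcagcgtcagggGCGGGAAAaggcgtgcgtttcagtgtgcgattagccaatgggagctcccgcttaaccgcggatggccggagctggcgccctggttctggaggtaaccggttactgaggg
FEN1: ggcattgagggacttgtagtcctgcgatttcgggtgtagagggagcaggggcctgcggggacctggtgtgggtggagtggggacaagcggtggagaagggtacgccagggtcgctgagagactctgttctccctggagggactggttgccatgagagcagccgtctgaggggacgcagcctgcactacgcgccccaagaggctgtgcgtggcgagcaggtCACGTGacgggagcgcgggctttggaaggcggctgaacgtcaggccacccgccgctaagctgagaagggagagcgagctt
An E2F site was present in the promoter of 19 of the 35 genes (54.3%), against 3.99% of 27305 genes with an entry and 3.32% of 35116 promoters. MCM2 carried both kinds of match, an E-box followed by a pair of overlapping E2F sites that run through each other on opposite strands. MCM7 also carried both kinds in 1 promoter entry, and GMNN carried them in separate entries. An E-box was present in 5 of the 35 genes (14.3%), namely FEN1, GMNN, MCM2, MCM7 and RPA1, against 8.78% of all genes with an entry and 7.26% of promoters. The CCAAT box, searched as CCAAT on both strands, was present in 22 (62.9%), against 39.7% of all genes and 34.6% of promoters. The median log2 ratio of KO over WT for the 5 genes with an E-box was 0.33 under cisplatin, 0.29 under doxorubicin, 0.14 under tunicamycin and 0.23 in control. For the 30 without one it was 0.13, 0.08, -0.13 and -0.08 in the same order. For the 19 genes with an E2F site it was 0.20, 0.15, -0.06 and -0.08, and for the 16 without one 0.06, -0.02, -0.14 and 0.02. For the E2F site the order of the medians in control was the opposite of that under the drugs, and for the E-box it was the same. The E-box medians rest on 5 genes, of which MCM7 had a negative ratio in every table and GMNN in all but cisplatin. Neither split was tested.

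In BMAL1 KO cells replication genes were called in both directions under every treatment. Under cisplatin more of them rose than fell, under tunicamycin more fell than rose, and under doxorubicin and in control the numbers were even or nearly so. Whether the ratios differ between treatments was not tested. Most differences were small, and those of RPA3, RFC3 and PCNA were the only ones that passed the threshold at a size of 2-fold or more. Under cisplatin 20 of 41 genes were called higher (48.8%), where 25.4% of all tested genes were, and 6 were called lower (14.6%), where 24.2% of all tested genes were. Under doxorubicin 12 genes were called higher beside 24.4% of all tested genes, and 12 lower beside 20.7%. Under tunicamycin 11 were called higher beside 27.2%, and 15 lower (36.6%) beside 22.1%. In control 12 were called higher beside 22.7%, and 10 lower beside 21.1%. Genes of at least 5 FPKM are called more often, and among these the background was 33.8% higher and 28.99% lower under cisplatin, 36.9% and 27.0% under doxorubicin, 36.1% and 24.8% under tunicamycin and 27.7% and 24.6% in control. Of the replication genes of at least 5 FPKM, 20 of 40 were called higher and 5 lower (12.5%) under cisplatin. Under doxorubicin 10 of 31 were called higher (32.3%) and 12 lower (38.7%). Under tunicamycin 11 of 39 were called higher (28.2%) and 14 lower (35.9%). In control all 41 had that level. The median log2 ratio of the 41 genes was 0.16 under cisplatin, 0.08 under doxorubicin, -0.11 under tunicamycin and -0.08 in control, and that of all tested genes was 0.02, 0.04, 0.03 and 0.01 in the same order.

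**Figure D1:**
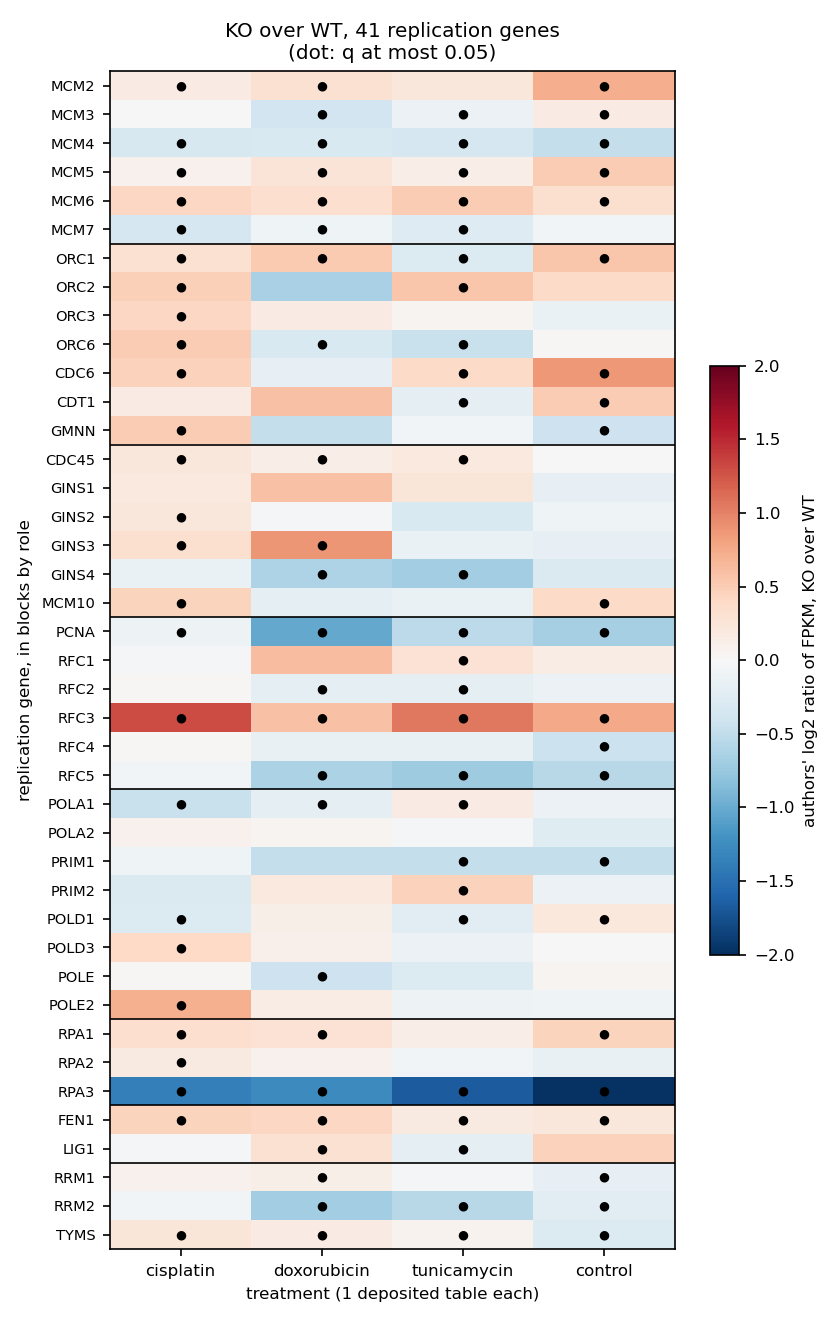
Authors' log2 ratio of FPKM, KO over WT, for the 41 replication genes (one line per gene, in blocks by role) under cisplatin, doxorubicin, tunicamycin and control, with red for higher and blue for lower in KO cells and a dot where q was at most 0.05. The RPA3 line is blue and the RFC3 line red in all 4 columns, and cisplatin has 20 red and 6 blue dots.

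The calls that recurred were few. MCM5, MCM6, RFC3 and FEN1 were called higher in all 4 tables, 4 of 41 genes where 9.00% of the 10881 genes tested in every table were. MCM4, PCNA and RPA3 were called lower in all 4, 3 of 41 genes where the background was 8.66%. GINS1 and POLA2 were called in no table, 2 of 41 genes beside 18.0%. The genes called higher in 1 table and lower in another numbered 10 of 41 (MCM3, ORC1, ORC6, CDT1, GMNN, POLA1, POLD1, LIG1, RRM1 and TYMS), beside 12.9% of all genes. Counts that recurred in 1 direction were thus near this background. It was taken with no minimum FPKM, as were the other shares of this paragraph, and genes of at least 5 FPKM are called more often. These tables share no libraries.

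The MCM helicase genes, whose products form the ring that unwinds DNA, were split in KO cells. Under cisplatin 3 of 6 rose and 2 fell (25.4% of all tested genes rose and 24.2% fell). Under doxorubicin 3 rose and 3 fell (24.4% and 20.7%), and under tunicamycin 2 rose and 3 fell (27.2% and 22.1%). In control 4 rose and 1 fell (22.7% and 21.1%). MCM2 was listed at 159 (KO) and 142 (WT) FPKM under cisplatin, 125 (KO) and 101 (WT) under doxorubicin, 70.5 (KO) and 60.1 (WT) under tunicamycin and 96.8 (KO) and 58.9 (WT) in control. The control pair was the most unequal, and the authors' deposited tables gave log2 ratios of 0.17 under cisplatin (q = 0.00278), 0.31 under doxorubicin (q = 0.000186), 0.23 under tunicamycin (q = 0.0746) and 0.72 in control (q = 0.000213). MCM5 stood at 107 (KO) and 100.1 (WT) FPKM under cisplatin, 192 (KO) and 161 (WT) under doxorubicin, 98.3 (KO) and 89.6 (WT) under tunicamycin and 128 (KO) and 90.04 (WT) in control. It was higher in the KO group of each pair, and in the authors' deposited tables the ratios were 0.09 under cisplatin (q = 0.0379), 0.25 under doxorubicin (q = 0.000186), 0.13 under tunicamycin (q = 0.0301) and 0.51 in control (q = 0.000213). MCM6 had 32.9 (KO) and 24.7 (WT) FPKM under cisplatin, 47.4 (KO) and 37.4 (WT) under doxorubicin, 34.6 (KO) and 24.4 (WT) under tunicamycin and 40.9 (KO) and 32.8 (WT) in control. Its KO groups were again higher in every pair, by 0.41 under cisplatin (q = 0.000167), 0.34 under doxorubicin (q = 0.000186), 0.51 under tunicamycin (q = 0.000173) and 0.32 in control (q = 0.000213) on the log2 scale of the authors' deposited tables.

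MCM4 went the other way, with 73.04 (KO) and 91.04 (WT) FPKM under cisplatin, 70.5 (KO) and 86.5 (WT) under doxorubicin, 38.7 (KO) and 48.5 (WT) under tunicamycin and 69.4 (KO) and 97.1 (WT) in control. The authors' deposited tables gave -0.32 under cisplatin (q = 0.00649), -0.30 under doxorubicin (q = 0.0243), -0.33 under tunicamycin (q = 0.0189) and -0.48 in control (q = 0.01), so this subunit fell in each table while its partners MCM5 and MCM6 rose. MCM7 was the most abundant of the ring genes in WT cells under every treatment, at 126 (KO) and 158 (WT) FPKM under cisplatin, 167 (KO) and 176 (WT) under doxorubicin, 109 (KO) and 131 (WT) under tunicamycin and 135 (KO) and 141 (WT) in control. It fell under all 3 drugs and missed the threshold in control, with log2 ratios in the authors' deposited tables of -0.33 under cisplatin (q = 0.000167), -0.08 under doxorubicin (q = 0.000186), -0.26 under tunicamycin (q = 0.000173) and -0.06 in control (q = 0.0756). MCM3 stood at 76.2 (KO) and 76.3 (WT) FPKM under cisplatin, 42.5 (KO) and 55.2 (WT) under doxorubicin, 48.1 (KO) and 52.1 (WT) under tunicamycin and 79.6 (KO) and 70.8 (WT) in control. Its authors' deposited ratio was 0.00 under cisplatin (q = 0.964), -0.38 under doxorubicin (q = 0.000186), -0.12 under tunicamycin (q = 0.00179) and 0.17 in control (q = 0.000213), so it fell under doxorubicin and tunicamycin, was not called under cisplatin, and rose in control.

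Of the 6 genes that recognise origins and load the helicase, 5 rose under cisplatin with none lower (25.4% of all tested genes rose and 24.2% fell). Their inhibitor GMNN rose there too. Under doxorubicin 1 of the 6 rose and 1 fell (24.4% and 20.7%). Under tunicamycin 2 rose and 3 fell (27.2% and 22.1%), and in control 3 rose with none lower (22.7% and 21.1%). GMNN fell in control. CDC6, the ATPase that recruits the helicase to origins, was listed at 172 (KO) and 125 (WT) FPKM under cisplatin, 17.1 (KO) and 19.2 (WT) under doxorubicin, 183 (KO) and 139 (WT) under tunicamycin and 78.2 (KO) and 43.01 (WT) in control. In the authors' deposited tables CDC6 rose under cisplatin and tunicamycin and in control, at 0.46 under cisplatin (q = 0.000167), -0.16 under doxorubicin (q = 0.433), 0.39 under tunicamycin (q = 0.000173) and 0.86 in control (q = 0.000213). CDT1, its partner in loading, stood at 84.7 (KO) and 75.7 (WT) FPKM under cisplatin, 3.38 (KO) and 2.25 (WT) under doxorubicin, 22.0 (KO) and 25.02 (WT) under tunicamycin and 53.6 (KO) and 38.05 (WT) in control. In the authors' deposited tables it fell under tunicamycin and rose in control, with 0.16 under cisplatin (q = 0.202), 0.59 under doxorubicin (q = 0.0978), -0.19 under tunicamycin (q = 0.0486) and 0.50 in control (q = 0.00392). GMNN, which encodes the inhibitor of CDT1, stood at 63.5 (KO) and 44.9 (WT) FPKM under cisplatin, 4.35 (KO) and 6.05 (WT) under doxorubicin, 25.5 (KO) and 26.6 (WT) under tunicamycin and 47.04 (KO) and 62.9 (WT) in control. The KO group was the higher one under cisplatin only, and the authors' deposited ratios were 0.50 under cisplatin (q = 0.000167), -0.48 under doxorubicin (q = 0.053), -0.06 under tunicamycin (q = 0.525) and -0.42 in control (q = 0.000594). The FPKM of GMNN divided by that of CDT1 was 0.749 (KO) and 0.592 (WT) under cisplatin, 1.29 (KO) and 2.69 (WT) under doxorubicin, 1.16 (KO) and 1.06 (WT) under tunicamycin and 0.877 (KO) and 1.65 (WT) in control. Inhibitor and loader were nearest to each other in WT cells under tunicamycin and furthest apart in WT cells under doxorubicin.

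Among the subunits of the origin recognition complex, ORC1, the ATPase subunit that comes and goes with the cell cycle, had 15.8 (KO) and 12.8 (WT) FPKM under cisplatin, 2.75 (KO) and 1.91 (WT) under doxorubicin, 3.83 (KO) and 4.65 (WT) under tunicamycin and 9.67 (KO) and 6.61 (WT) in control. It rose in 3 tables and fell in 1, at 0.31 under cisplatin (q = 0.000167), 0.52 under doxorubicin (q = 0.00509), -0.28 under tunicamycin (q = 0.0113) and 0.55 in control (q = 0.000213) in the authors' deposited tables. ORC6, the smallest subunit, had 34.6 (KO) and 24.4 (WT) FPKM under cisplatin, 10.2 (KO) and 12.7 (WT) under doxorubicin, 8.405 (KO) and 11.5 (WT) under tunicamycin and 13.1 (KO) and 12.8 (WT) in control. The authors' deposited ratios were 0.50 under cisplatin (q = 0.000167), -0.31 under doxorubicin (q = 0.0321), -0.45 under tunicamycin (q = 0.000173) and 0.03 in control (q = 0.875), which puts a rise under cisplatin beside falls under the other drugs. ORC2 was listed at 8.299 (KO) and 5.98 (WT) FPKM under cisplatin, 0.654 (KO) and 1.03 (WT) under doxorubicin, 10.5 (KO) and 7.15 (WT) under tunicamycin and 11.5 (KO) and 8.83 (WT) in control. It rose under cisplatin and tunicamycin in the authors' deposited tables, with 0.47 under cisplatin (q = 0.0137), -0.65 under doxorubicin (q = 0.317), 0.55 under tunicamycin (q = 0.00701) and 0.38 in control (q = 0.194). ORC3 rose under cisplatin alone, at 14.9 (KO) and 11.2 (WT) FPKM with a ratio of 0.42 under cisplatin (q = 0.00147) in the authors' deposited table, and lay between 9.09 and 15.5 FPKM over all groups.

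**Figure D2:**
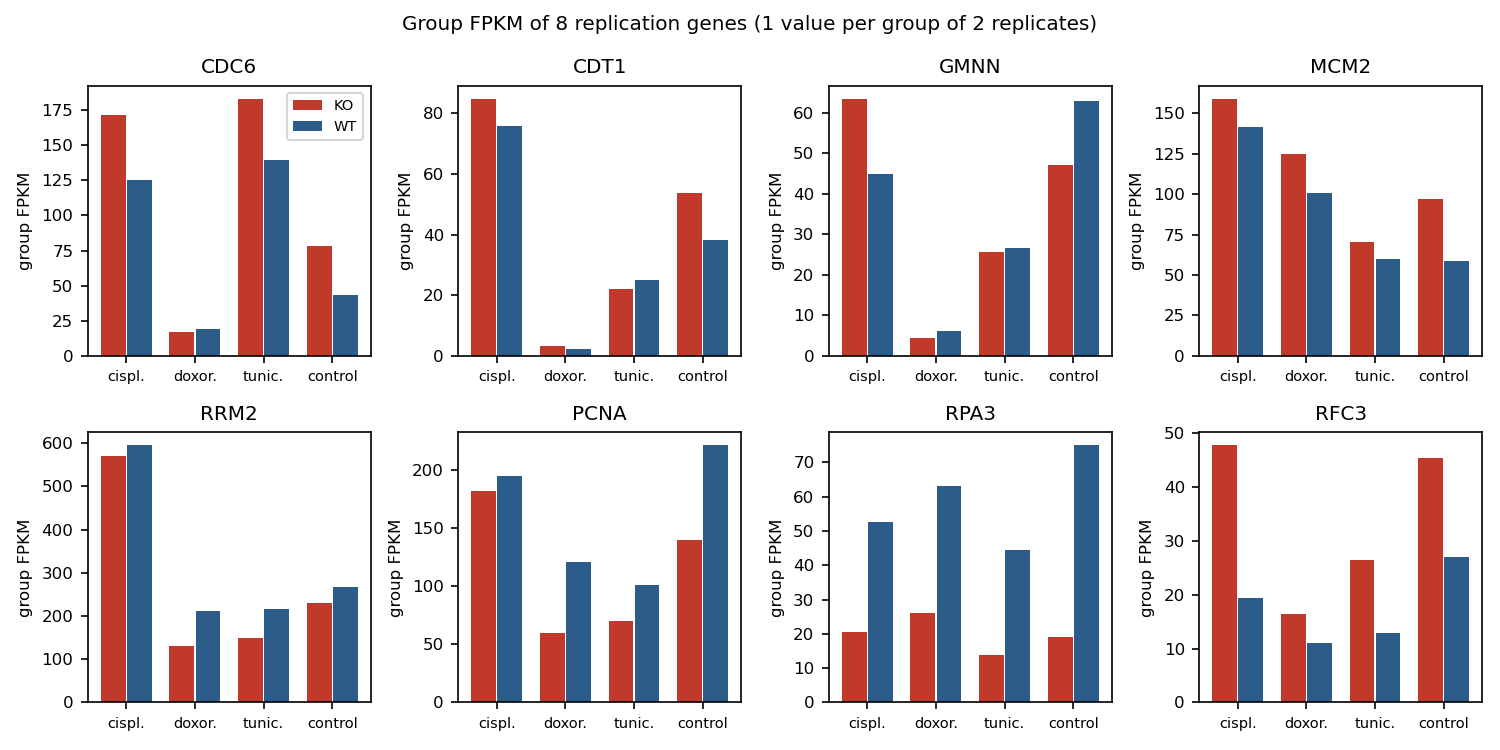
Group FPKM of CDC6, CDT1, GMNN, MCM2, RRM2, PCNA, RPA3 and RFC3 (linear axes from 0) in KO and WT cells under cisplatin, doxorubicin, tunicamycin and control, each bar being 1 deposited value for 2 replicates, so no error bars can be drawn. CDC6 was higher under cisplatin and tunicamycin than in control in both genotypes, CDT1 and GMNN were below 7 FPKM under doxorubicin, and RPA3 was lower in every KO bar.

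Of the genes that complete and fire the CMG helicase, 4 of 6 rose under cisplatin with none lower (25.4% of all tested genes rose and 24.2% fell). Under doxorubicin 2 rose and 1 fell (24.4% and 20.7%), and under tunicamycin 1 rose and 1 fell (27.2% and 22.1%). In control 1 rose with none lower (22.7% and 21.1%). CDC45, which closes the active helicase, had the flattest profile of all, at 45.3 (KO) and 38.6 (WT) FPKM under cisplatin, 45.3 (KO) and 41.2 (WT) under doxorubicin, 42.2 (KO) and 36.7 (WT) under tunicamycin and 40.2 (KO) and 40.2 (WT) in control. It rose slightly under each drug, with 0.23 under cisplatin (q = 0.000167), 0.14 under doxorubicin (q = 0.0119), 0.20 under tunicamycin (q = 0.000335) and 0.00 in control (q = 0.996) in the authors' deposited tables. GINS4, a subunit of the GINS complex, had 31.9 (KO) and 34.8 (WT) FPKM under cisplatin, 21.4 (KO) and 32.7 (WT) under doxorubicin, 15.7 (KO) and 25.3 (WT) under tunicamycin and 22.6 (KO) and 27.7 (WT) in control. It fell under doxorubicin and tunicamycin in the authors' deposited tables, at -0.13 under cisplatin (q = 0.34), -0.61 under doxorubicin (q = 0.000852), -0.69 under tunicamycin (q = 0.000173) and -0.29 in control (q = 0.178). GINS3 stood at 17.2 (KO) and 13.8 (WT) FPKM under cisplatin, 1.97 (KO) and 1.07 (WT) under doxorubicin, 4.45 (KO) and 4.92 (WT) under tunicamycin and 7.81 (KO) and 8.75 (WT) in control. It rose under cisplatin and doxorubicin in the authors' deposited tables, at 0.32 under cisplatin (q = 0.00913) and 0.89 under doxorubicin (q = 0.0426), although the doxorubicin ratio rests on levels near 1 to 2 FPKM. MCM10, which helps the CMG helicase to start, had 42.7 (KO) and 31.5 (WT) FPKM under cisplatin, 1.73 (KO) and 1.98 (WT) under doxorubicin, 10.5 (KO) and 11.6 (WT) under tunicamycin and 27.6 (KO) and 21.2 (WT) in control. The authors' deposited ratios were 0.44 under cisplatin (q = 0.000167), -0.20 under doxorubicin (q = 0.754), -0.14 under tunicamycin (q = 0.103) and 0.38 in control (q = 0.000777). GINS2 rose under cisplatin alone, at 17.3 (KO) and 14.8 (WT) FPKM with a ratio of 0.22 under cisplatin (q = 0.0365) in the authors' deposited table. GINS1, called in no table, had 8.26 (KO) and 7.22 (WT) FPKM under cisplatin, 1.14 (KO) and 0.766 (WT) under doxorubicin, 6.44 (KO) and 5.46 (WT) under tunicamycin and 11.4 (KO) and 12.9 (WT) in control. Both of its doxorubicin values lay far below the others.

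Of the 6 genes of the clamp and its loader, 1 rose and 1 fell under cisplatin (25.4% of all tested genes rose and 24.2% fell). Under doxorubicin 1 rose and 3 fell (24.4% and 20.7%), and under tunicamycin 2 rose and 3 fell (27.2% and 22.1%). In control 1 rose and 3 fell (22.7% and 21.1%). PCNA, the sliding clamp that tethers the polymerases, was listed at 182 (KO) and 195 (WT) FPKM under cisplatin, 59.4 (KO) and 121 (WT) under doxorubicin, 70.5 (KO) and 101 (WT) under tunicamycin and 140.2 (KO) and 222 (WT) in control. It fell in all 4 tables, least under cisplatin and most under doxorubicin, with -0.10 under cisplatin (q = 0.000167), -1.03 under doxorubicin (q = 0.000186), -0.52 under tunicamycin (q = 0.000173) and -0.66 in control (q = 0.000213) in the authors' deposited tables. RFC3, a subunit of the loader, had 47.7 (KO) and 19.4 (WT) FPKM under cisplatin, 16.5 (KO) and 10.9 (WT) under doxorubicin, 26.4 (KO) and 12.8 (WT) under tunicamycin and 45.4 (KO) and 26.98 (WT) in control. It rose in all 4 tables, by 1.30 under cisplatin (q = 0.000167), 0.59 under doxorubicin (q = 0.000186), 1.05 under tunicamycin (q = 0.000173) and 0.75 in control (q = 0.000213) on the log2 scale of the authors' deposited tables. RFC5, a further loader subunit, stood at 42.1 (KO) and 43.5 (WT) FPKM under cisplatin, 14.8 (KO) and 23.1 (WT) under doxorubicin, 14.6 (KO) and 23.97 (WT) under tunicamycin and 22.97 (KO) and 33.7 (WT) in control. Its authors' deposited ratios were -0.05 under cisplatin (q = 0.445), -0.64 under doxorubicin (q = 0.000186), -0.71 under tunicamycin (q = 0.000173) and -0.55 in control (q = 0.000213), which leaves the cisplatin pair alone without a call. RFC4 fell in control only, at 46.7 (KO) and 63.04 (WT) FPKM with -0.43 in control (q = 0.000213) in the authors' deposited table. RFC2 fell under doxorubicin and tunicamycin, by -0.18 under doxorubicin (q = 0.00319) and -0.19 under tunicamycin (q = 0.0115) in the authors' deposited tables. RFC1, the large subunit, had 18.2 (KO) and 18.5 (WT) FPKM under cisplatin, 1.71 (KO) and 1.12 (WT) under doxorubicin, 18.1 (KO) and 14.8 (WT) under tunicamycin and 16.1 (KO) and 14.5 (WT) in control. It rose under tunicamycin alone, with 0.29 under tunicamycin (q = 0.0063) in the authors' deposited table. Subunits of 1 pentameric loader thus moved in both directions.

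Of the 8 polymerase and primase genes, 2 rose and 2 fell under cisplatin (25.4% and 24.2% of all tested genes did), and 0 rose and 2 fell under doxorubicin (24.4% and 20.7%). Likewise 2 rose and 2 fell under tunicamycin (27.2% and 22.1%), and 1 rose and 1 fell in control (22.7% and 21.1%). POLE2, the B subunit of polymerase epsilon, was listed at 23.7 (KO) and 14.5 (WT) FPKM under cisplatin, 9.104 (KO) and 8.22 (WT) under doxorubicin, 8.801 (KO) and 9.44 (WT) under tunicamycin and 21.1 (KO) and 22.4 (WT) in control. It rose under cisplatin, where the authors' deposited table gave 0.71 under cisplatin (q = 0.000167), while the other 3 pairs missed the threshold. POLA1, the catalytic subunit of polymerase alpha, had 3.18 (KO) and 4.34 (WT) FPKM under cisplatin, 8.63 (KO) and 9.81 (WT) under doxorubicin, 7.82 (KO) and 6.99 (WT) under tunicamycin and 8.403 (KO) and 9.06 (WT) in control. It fell under cisplatin and doxorubicin and rose under tunicamycin, with -0.45 under cisplatin (q = 0.00639), -0.19 under doxorubicin (q = 0.00206), 0.16 under tunicamycin (q = 0.0391) and -0.11 in control (q = 0.511) in the authors' deposited tables. POLD1, the catalytic subunit of polymerase delta, stood at 36.04 (KO) and 43.6 (WT) FPKM under cisplatin, 54.2 (KO) and 50.4 (WT) under doxorubicin, 32.9 (KO) and 38.4 (WT) under tunicamycin and 42.99 (KO) and 37.1 (WT) in control. The authors' deposited ratios were -0.28 under cisplatin (q = 0.000167), 0.11 under doxorubicin (q = 0.0565), -0.23 under tunicamycin (q = 0.000492) and 0.21 in control (q = 0.00146), falls under cisplatin and tunicamycin beside a rise in control. PRIM1, the catalytic primase subunit, fell under tunicamycin and in control, by -0.47 under tunicamycin (q = 0.000173) and -0.48 in control (q = 0.000213) in the authors' deposited tables. PRIM2, the large primase subunit, had 6.66 (KO) and 8.17 (WT) FPKM under cisplatin, 6.35 (KO) and 5.54 (WT) under doxorubicin, 13.9 (KO) and 10.1 (WT) under tunicamycin and 17.96 (KO) and 19.6 (WT) in control. It rose under tunicamycin alone, with 0.46 under tunicamycin (q = 0.000335) in the authors' deposited table. POLD3, an accessory subunit of polymerase delta, rose under cisplatin alone (0.40 under cisplatin (q = 0.000167) in the authors' deposited table), and POLE, the catalytic subunit of polymerase epsilon, fell under doxorubicin alone (-0.41 under doxorubicin (q = 0.00588) in the authors' deposited table). POLA2, the B subunit of polymerase alpha, was called nowhere.

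The 3 subunits of RPA, which coats single-stranded DNA at the fork, parted company. RPA3, the smallest, was listed at 20.5 (KO) and 52.7 (WT) FPKM under cisplatin, 26.2 (KO) and 63.04 (WT) under doxorubicin, 13.9 (KO) and 44.4 (WT) under tunicamycin and 19.1 (KO) and 74.9 (WT) in control. Every KO value was below every WT value, and the authors' deposited ratios were -1.36 under cisplatin (q = 0.000167), -1.27 under doxorubicin (q = 0.000186), -1.67 under tunicamycin (q = 0.000173) and -1.97 in control (q = 0.000213). RPA1, the large subunit, had 160.5 (KO) and 128 (WT) FPKM under cisplatin, 178 (KO) and 145 (WT) under doxorubicin, 86.04 (KO) and 78.1 (WT) under tunicamycin and 127 (KO) and 93.9 (WT) in control. It rose under cisplatin, under doxorubicin and in control, with 0.33 under cisplatin (q = 0.000167), 0.29 under doxorubicin (q = 0.000186), 0.14 under tunicamycin (q = 0.0624) and 0.44 in control (q = 0.000213) in the authors' deposited tables. RPA2 rose under cisplatin alone, with 0.18 under cisplatin (q = 0.000167) in the authors' deposited table.

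FEN1 and LIG1 finish Okazaki fragments, FEN1 by cutting the flap and LIG1 by sealing the nick. FEN1 stood at 161 (KO) and 118 (WT) FPKM under cisplatin, 52.3 (KO) and 39.1 (WT) under doxorubicin, 62.6 (KO) and 55.1 (WT) under tunicamycin and 104 (KO) and 89.2 (WT) in control. It rose in all 4 tables, with 0.45 under cisplatin (q = 0.000167), 0.42 under doxorubicin (q = 0.000186), 0.18 under tunicamycin (q = 0.00206) and 0.23 in control (q = 0.000213) in the authors' deposited tables. LIG1 had 52.6 (KO) and 54.1 (WT) FPKM under cisplatin, 90.2 (KO) and 73.5 (WT) under doxorubicin, 41.7 (KO) and 47.6 (WT) under tunicamycin and 57.2 (KO) and 41.6 (WT) in control. It rose under doxorubicin and fell under tunicamycin, and the large control ratio missed the threshold, at -0.04 under cisplatin (q = 0.653), 0.30 under doxorubicin (q = 0.00161), -0.19 under tunicamycin (q = 0.0386) and 0.46 in control (q = 0.0876) in the authors' deposited tables.

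Of the 3 genes of nucleotide supply, all fell in control, where 21.1% of all tested genes did. RRM2, the small subunit of ribonucleotide reductase and the most abundant of the 41 genes in both cisplatin and both control groups, was listed at 570.3 (KO) and 595 (WT) FPKM under cisplatin, 131 (KO) and 212 (WT) under doxorubicin, 148 (KO) and 216 (WT) under tunicamycin and 229.7 (KO) and 267 (WT) in control. It fell under doxorubicin, under tunicamycin and in control, with -0.06 under cisplatin (q = 0.0787), -0.69 under doxorubicin (q = 0.000186), -0.55 under tunicamycin (q = 0.000173) and -0.22 in control (q = 0.000213) in the authors' deposited tables. RRM1, the large subunit, had 122 (KO) and 115 (WT) FPKM under cisplatin, 104 (KO) and 95.6 (WT) under doxorubicin, 69.2 (KO) and 70.2 (WT) under tunicamycin and 88.6 (KO) and 99.3 (WT) in control. It rose under doxorubicin and fell in control, at 0.09 under cisplatin (q = 0.13), 0.12 under doxorubicin (q = 0.0284), -0.02 under tunicamycin (q = 0.806) and -0.16 in control (q = 0.0385) in the authors' deposited tables. TYMS, which makes thymidylate, stood at 198 (KO) and 167 (WT) FPKM under cisplatin, 277 (KO) and 247 (WT) under doxorubicin, 128 (KO) and 122 (WT) under tunicamycin and 172 (KO) and 209 (WT) in control. It fell in control and rose under each drug, with 0.24 under cisplatin (q = 0.000167), 0.17 under doxorubicin (q = 0.000186), 0.07 under tunicamycin (q = 0.0389) and -0.28 in control (q = 0.000213) in the authors' deposited tables.

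Position on the chromosome moved with 3 of these results. Of 282 windows of 10 Mb (GRCh38) with at least 10 tested genes, 28 had a median log2 ratio of KO over WT of at least 0.3 in size and of 1 sign in all 4 tables, and RPA3, RFC3 and RFC5 lie in such windows. RPA3 spans 7636518 to 7718607 of chromosome 7 (minus strand, GENCODE 29). The 55 other genes of its window had medians of -1.25 under cisplatin, -1.0 under doxorubicin, -1.27 under tunicamycin and -1.19 in control. RFC3 spans 33818049 to 33966558 of chromosome 13 (plus strand), and the 20 other genes of its window had medians of 0.99, 0.65, 0.94 and 0.65 in the same order. RFC5 spans 118013588 to 118033130 of chromosome 12 (plus strand), and the 55 other genes of its window had medians of -0.42, -0.41, -0.32 and -0.39. The ratios of these 3 genes in the authors' deposited tables therefore had the sign of their neighbours', and the part of position in them was not tested. MCM4 and GINS4 share a window of chromosome 8 whose 21 other genes had medians of -0.34, -0.26 and -0.24 under cisplatin, doxorubicin and tunicamycin and of -0.39 beside MCM4 and -0.41 beside GINS4 in control. That window missed the bound under 2 of the drugs, and both genes had negative ratios in every table. MCM6 lies in a window with medians of 0.14, 0.16, 0.31 and 0.42, which passed the bound under tunicamycin and in control and had the sign of its own ratio in every table. The window of POLE2 had medians of 0.49, 0.46 and 0.58 under the drugs and -0.12 in control, and that of RRM2 -0.20, -0.28, -0.16 and -0.45. The window of FEN1 had medians of 0.12, 0.26 and 0.18 under cisplatin, doxorubicin and tunicamycin and 0.28 in control, with the sign of the FEN1 ratio in every table. In control that median was above the FEN1 ratio of 0.23. The windows of PCNA and MCM5 had medians between -0.18 and 0.23. Without RPA3, RFC3 and RFC5 the calls numbered 19 higher and 5 lower under cisplatin, 11 and 10 under doxorubicin, 10 and 13 under tunicamycin and 11 and 8 in control.

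**Figure D3:**
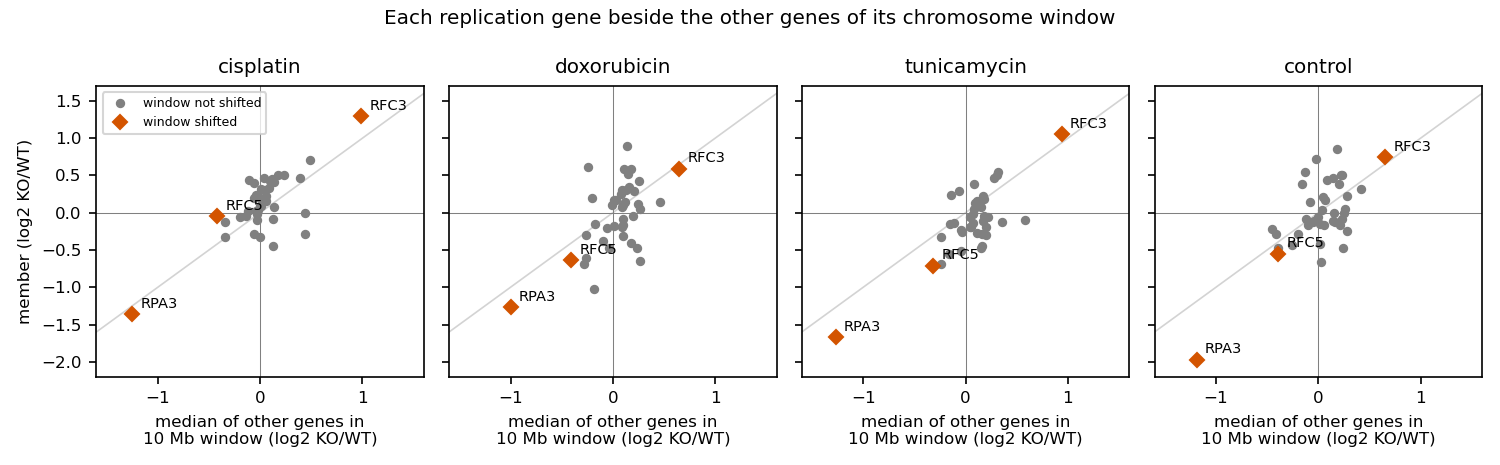
Authors' log2 ratio of KO over WT of each replication gene (vertical axis) against the median of the other tested genes of its 10 Mb window (horizontal axis) under cisplatin, doxorubicin, tunicamycin and control; the grey line marks equal values and diamonds mark the 3 genes in shifted windows. RPA3 lies at the lower left and RFC3 at the upper right in each panel, while the window medians of the genes without a diamond run from -0.45 to 0.58.

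Overlapping genes may bear on some values, because use of strand in the counting is unknown here. Of the 41 genes, 12 overlap a gene of at least 5 FPKM, 10 of them on the opposite strand. The largest such neighbours were NACA (up to 865.5 FPKM, same strand) at PRIM1, TMEM258 (254) and FADS2 (199) at FEN1, EIF4A2 (235.5) at RFC4 and WSB2 (155) at RFC5. How reads of the shared stretches were assigned is not known here, and the share of each gene's reads that they make up was not measured. The 14 annotated pseudogenes of 7 of the genes reached at most 0.298 FPKM.

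Responses to each drug were compared between KO and WT cells across the replication genes. Responses are log2 ratios of FPKM plus a pseudocount of 1, drug over control within a genotype, on which low genes change less than they would on the plain ratio. Across the 41 genes Pearson's r between the KO and the WT response was 0.80 under cisplatin, 0.96 under doxorubicin and 0.77 under tunicamycin, and 0.60, 0.87 and 0.54 across 10177 genes. Spearman's rho across the 41 genes was 0.78, 0.95 and 0.63 in the same order. The response had the same sign in both genotypes for 23, 36 and 37 genes. That sign was taken against 0, and no such count was made over all genes. Under tunicamycin 38 (KO) and 36 (WT) of the 41 responses were below 0, so most of them had to share a sign. The correlations and counts are descriptions across genes, which are not independent replicates. In bulk RNA the share of cells in S phase and the amount of message per cell cannot be told apart. Each response was read against the median gene of the same pair of groups, taken over genes of at least 5 FPKM in 1 of them.

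**Figure D4:**
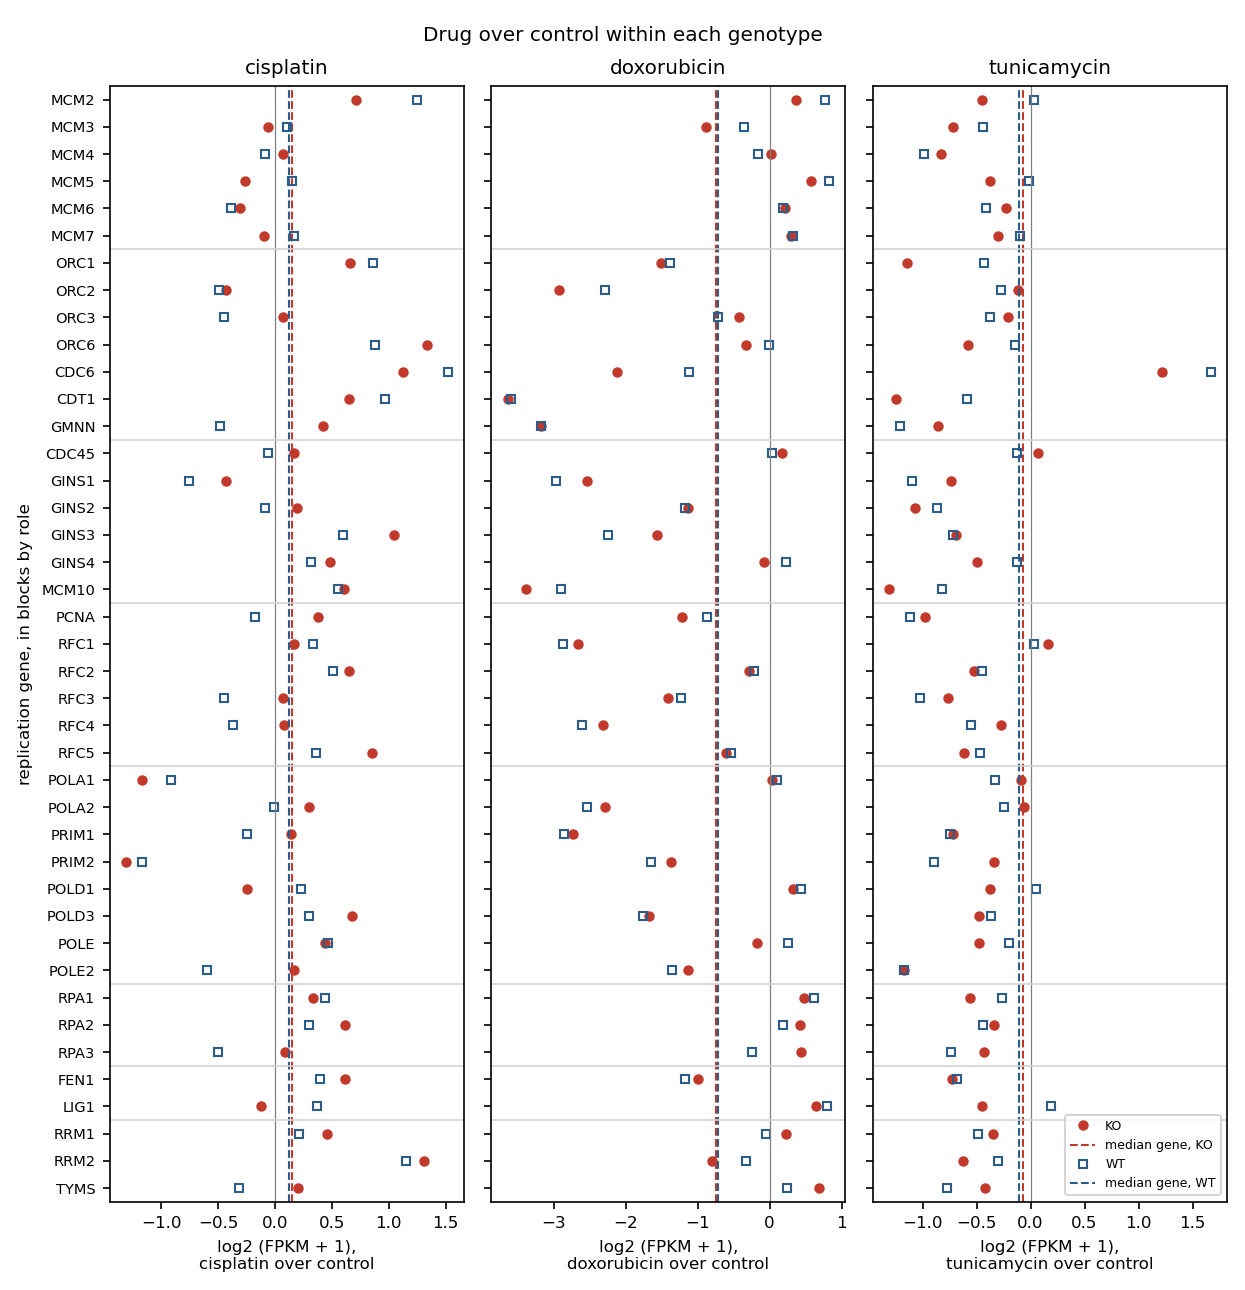
Response of each replication gene, log2 of FPKM plus 1, drug over control, in KO cells (filled) and WT cells (open) under cisplatin, doxorubicin and tunicamycin, with dashed lines at the median of all genes of at least 5 FPKM in 1 of the groups. Under tunicamycin 37 (KO) and 34 (WT) of 41 genes lie left of the median gene and CDC6 lies alone at the right, and the doxorubicin panel runs from -3.64 to 0.83.

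Under cisplatin the median replication gene lay near the median gene, and the shares far above it were near those of all genes. The median response was 0.20 in KO and 0.17 in WT cells, and that of all genes 0.15 in KO and 0.12 in WT cells. Relative to the median gene, 5 of 41 genes were at least 1.5-fold higher in KO cells (11.5% of all genes were) and 2 at least 1.5-fold lower (17.7%), and in WT cells 6 were higher (14.2%) and 7 lower (15.2%). The 5 in KO cells were ORC6, RRM2, CDC6, GINS3 and RFC5, and the 6 in WT cells were CDC6, MCM2, RRM2, CDT1, ORC6 and ORC1. CDC6 had responses of 1.13 in KO and 1.52 in WT cells. Those of ORC6 were 1.34 in KO and 0.88 in WT cells, those of RRM2 1.31 in KO and 1.15 in WT cells and those of CDT1 0.65 in KO and 0.97 in WT cells. The origin recognition genes ORC2 (-0.43 in KO and -0.49 in WT cells) and ORC3 (0.07 in KO and -0.45 in WT cells) were not among the high ones. MCM2 stood at 0.71 in KO and 1.25 in WT cells and GINS3 at 1.05 in KO and 0.60 in WT cells. The other MCM ring genes lay between -0.31 and 0.07 in KO and between -0.39 and 0.17 in WT cells. At the low end PRIM2 responded with -1.31 in KO and -1.17 in WT cells and POLA1 with -1.17 in KO and -0.91 in WT cells. These are the longest of the 41 genes, with spans of 332.0 kb and 303.1 kb on the genome. GMNN was higher than in control in KO cells and lower in WT cells, at 0.42 in KO and -0.48 in WT cells. POLE2 (0.17 in KO and -0.60 in WT cells), PCNA (0.38 in KO and -0.18 in WT cells) and TYMS (0.20 in KO and -0.32 in WT cells) showed the same split.

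Under doxorubicin the replication genes ran far to both sides of the median gene, in shares near those of all genes. The median response was -0.80 in KO and -0.53 in WT cells, beside -0.75 (KO) and -0.72 (WT) for all genes of at least 5 FPKM in 1 group and -0.06 (KO) and -0.18 (WT) for genes of at least 5 FPKM in both. Relative to the median over genes of at least 5 FPKM in 1 group, 16 of 41 genes were at least 1.5-fold higher in KO cells (36.7% of all genes were) and 15 at least 1.5-fold lower (37.4%), and in WT cells 15 were higher (33.8%) and 14 lower (36.3%). The lowest responses included those of CDT1, MCM10 and GMNN. CDT1 responded with -3.64 in KO and -3.59 in WT cells, and its FPKM of 3.38 (KO) and 2.25 (WT) was 15.9-fold (KO) and 16.9-fold (WT) below control. MCM10 was at -3.39 in KO and -2.90 in WT cells, GMNN at -3.17 in KO and -3.18 in WT cells and GINS1 at -2.54 in KO and -2.97 in WT cells. ORC2, RFC1, PRIM1, RFC4 and POLA2 lay between -2.92 and -2.28 in KO and between -2.87 and -2.28 in WT cells. CDC6, which was high under the other drugs, was also low here, at -2.12 in KO and -1.12 in WT cells.

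Most of the helicase ring and several abundant fork genes were not low under doxorubicin, with MCM3 (-0.89 in KO and -0.35 in WT cells) as the exception in the ring. MCM5 responded with 0.58 in KO and 0.83 in WT cells, LIG1 with 0.65 in KO and 0.80 in WT cells, MCM2 with 0.37 in KO and 0.77 in WT cells, RPA1 with 0.48 in KO and 0.62 in WT cells and TYMS with 0.68 in KO and 0.24 in WT cells. CDC45 was at 0.17 in KO and 0.04 in WT cells and the GINS gene GINS4 at -0.08 in KO and 0.23 in WT cells, beside GINS1, GINS2 and GINS3, whose responses ran from -2.54 to -1.14 in KO and from -2.97 to -1.18 in WT cells. Within the clamp loader RFC1 and RFC4 were low while RFC2 stood at -0.29 in KO and -0.22 in WT cells. PCNA was lower in both genotypes, at -1.22 in KO and -0.87 in WT cells. Of 41 genes, 12 (KO) and 13 (WT) were higher than control and 21 (KO) and 19 (WT) lower under each scaling tried, both median genes included. The sign of the others turned with the scaling, among them ORC3, RFC2 and RFC5 in both genotypes. Mitochondrial genes held 11.1% (KO) and 17.0% (WT) of summed FPKM under doxorubicin, against 3.86% (KO) and 5.35% (WT) in control, and their part in these levels was not tested. In WT cells under doxorubicin the highest single entry was the mitochondrial gene MT-TV, at 35600 of 820700 summed FPKM. The number of replication genes below 5 FPKM under doxorubicin was 11 in KO and 10 in WT cells, where ratios of KO over WT rest on low values.

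Under tunicamycin most replication genes were below the median gene, and CDC6 was far above it. The median response was -0.48 in KO and -0.44 in WT cells, beside -0.07 (KO) and -0.11 (WT) for all genes. In the lists of other genes described below, the medians ran from -0.70 to -0.23 in KO and from -0.49 to -0.19 in WT cells. That of the G2/M genes was -0.38 in KO and -0.37 in WT cells, so the fall was not particular to the 41 genes. Of 41 genes, 37 (KO) and 34 (WT) lay below the median gene. At least 1.5-fold below it were 14 genes in KO cells (6.28% of all genes were) and 13 in WT cells (8.34%), and at least 1.5-fold above it 1 gene in KO cells (9.74%) and 1 in WT cells (11.7%). That gene was CDC6 in both genotypes, with responses of 1.22 in KO and 1.67 in WT cells. The lowest in KO cells were MCM10 (-1.31 in KO and -0.82 in WT cells), CDT1 (-1.25 in KO and -0.59 in WT cells) and POLE2 (-1.17 in KO and -1.17 in WT cells). GMNN (-0.86 in KO and -1.21 in WT cells), GINS1 (-0.74 in KO and -1.10 in WT cells) and PCNA (-0.98 in KO and -1.12 in WT cells) were among the lowest in WT cells. ORC1 was at -1.14 in KO and -0.43 in WT cells, MCM2 at -0.45 in KO and 0.03 in WT cells and LIG1 at -0.45 in KO and 0.19 in WT cells. CDC45 and RFC1 stayed near control, at 0.07 in KO and -0.13 in WT cells for CDC45 and 0.16 in KO and 0.03 in WT cells for RFC1.

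Without a pseudocount, the KO response minus the WT response equals the KO over WT ratio under the drug minus that in control. This difference has no test here. It is given from the authors' ratios, so for low genes it departs from the responses above, which use a pseudocount of 1. Over the 41 genes the median of that difference was 0.17 log2 under cisplatin, -0.02 under doxorubicin and -0.01 under tunicamycin, beside -0.03, 0.01 and 0.02 over 10767 genes. Genes called in opposite directions under a drug and in control were 3 of 41 for cisplatin (5.89% of all genes), 3 for doxorubicin (4.10%) and 5 for tunicamycin (3.29%). They were GMNN, POLD1 and TYMS for cisplatin, MCM3, RRM1 and TYMS for doxorubicin, and MCM3, ORC1, CDT1, POLD1 and TYMS for tunicamycin. The 3 comparisons use the same control groups. On the authors' ratios the widest single shifts were in CDC6 and ORC2 under doxorubicin, each -1.03, and in GINS3 under doxorubicin, 1.05. The ORC2 and GINS3 levels under the drug were below 2 FPKM. With the pseudocount their doxorubicin responses lay closer together, at -2.92 (KO) and -2.28 (WT) for ORC2 and -1.57 (KO) and -2.24 (WT) for GINS3. CDC6 was thus 1.82-fold higher in KO than in WT cells in control, and under doxorubicin its KO level was the smaller one (17.1 (KO) and 19.2 (WT) FPKM), although the doxorubicin ratio missed the threshold (q = 0.433 in the authors' deposited table).

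Base composition and gene length moved with these values. The GC content of the longest coding transcript (GENCODE 29) ran from 39.1% in RFC3 to 65.0% in POLD1. Spearman's rho of GC content with the difference of the KO over WT ratio from control, across the 41 genes, was -0.47 under cisplatin, -0.16 under doxorubicin and -0.52 under tunicamycin, and -0.44, -0.08 and -0.46 across coding genes of at least 5 FPKM in 1 group. GC-poor genes of the set thus tended to have a higher ratio under cisplatin and tunicamycin than in control, as coding genes in general did. When the median ratio of coding genes of like GC content was subtracted, the cisplatin shift of GMNN was 0.72 in place of 0.92 and the tunicamycin shift of ORC1 -0.81 in place of -0.83. The small tunicamycin call of TYMS then had a ratio of -0.01 in place of 0.07, and the doxorubicin call of MCM5 0.01 in place of 0.25. Gene span had a rho with the cisplatin response of -0.38 in KO and -0.32 in WT cells across the 41 genes, and -0.51 in KO and -0.42 in WT cells across coding genes. GC content had a rho with the doxorubicin response of 0.42 in KO and 0.48 in WT cells across the 41 genes, and 0.10 in KO and 0.15 in WT cells across coding genes. In these correlations the points share libraries, and the part of length or GC content in the responses was not tested.

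**Figure D5:**
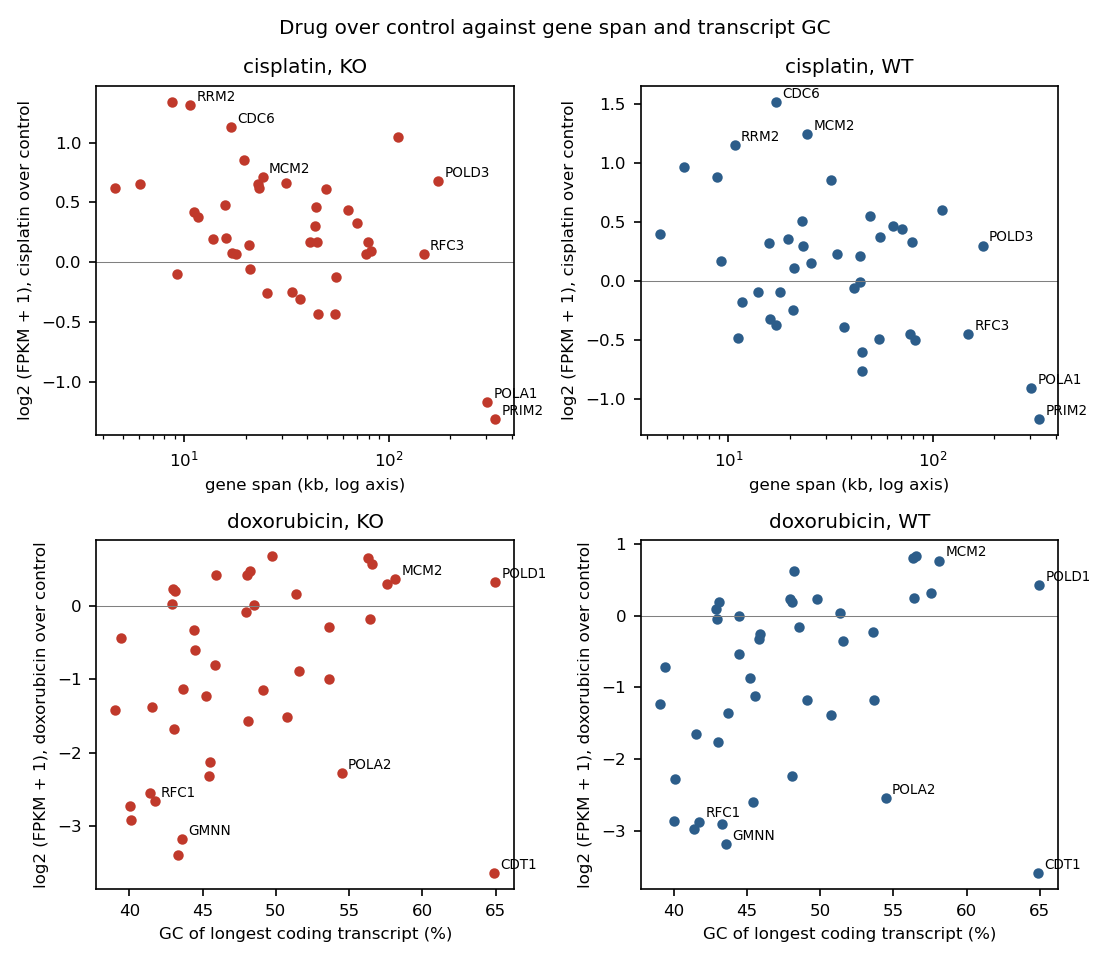
Response to cisplatin against gene span (kb, log axis) and response to doxorubicin against transcript GC content (%), each for the 41 replication genes in KO cells (left) and WT cells (right), as log2 of FPKM plus 1, drug over control. PRIM2 and POLA1 lie at the lower right of the cisplatin panels, and CDT1, with 64.9% GC, lies alone at the lower right of the doxorubicin panels.

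The rest of the pathway was described with lists of genes that are not among the 41. Over all tested genes the shares called higher were 25.4% under cisplatin, 24.4% under doxorubicin, 27.2% under tunicamycin and 22.7% in control. In the same order those called lower were 24.2%, 20.7%, 22.1% and 21.1%. Counts of the lists stand beside these shares. Of 13 further licensing and firing factors, 9 rose under cisplatin with none lower, 1 rose and 1 fell under doxorubicin (11 tested), 5 rose under tunicamycin with none lower, and 3 rose and 1 fell in control. CDC7, the kinase that fires origins, stood at 13.8 (KO) and 7.46 (WT) FPKM under cisplatin, where the authors' deposited table gave 0.88 under cisplatin (q = 0.000167). MCM9, a helicase relative of the MCM ring, rose under tunicamycin and in control, by 0.87 under tunicamycin (q = 0.0159) and 1.20 in control (q = 0.00887) in the authors' deposited tables. Of 11 genes of fork protection and cohesion loading, 5 rose and 1 fell under cisplatin, and CHTF8, a subunit of an alternative clamp loader, rose in all 4 tables, at 0.43 under cisplatin (q = 0.000167), 0.78 under doxorubicin (q = 0.000186), 0.33 under tunicamycin (q = 0.000173) and 0.57 in control (q = 0.000213) in the authors' deposited tables. RMI1, a partner of the BLM helicase, fell in every table but cisplatin, by -0.69 under doxorubicin (q = 0.00069), -0.47 under tunicamycin (q = 0.000173) and -0.74 in control (q = 0.000213) in the authors' deposited tables. Among 10 other polymerase and lagging strand factors, POLD2 and RNASEH2C rose in all 4 tables and POLE4 fell in all 4. RNASEH2B, a subunit of the nuclease that removes RNA from DNA, lies on chromosome 13 like RFC3 and rose under the 3 drugs, by 1.27 under cisplatin (q = 0.000167), 1.43 under doxorubicin (q = 0.000186) and 1.30 under tunicamycin (q = 0.000173) in the authors' deposited tables.

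Of 12 further genes of nucleotide supply, 4 rose and 3 fell under cisplatin, and 3 rose and 6 fell in control. SAMHD1, which degrades deoxynucleotides, fell in all 4 tables, with -0.63 under cisplatin (q = 0.000167), -0.44 under doxorubicin (q = 0.000186), -0.62 under tunicamycin (q = 0.000173) and -0.64 in control (q = 0.000213) in the authors' deposited tables. SLC29A1, a nucleoside transporter, and GART, a purine enzyme, rose in all 4. Among 9 genes of chromatin assembly, SLBP, which binds histone messages, stood at 1.13 FPKM in KO cells under doxorubicin, against 5.47 FPKM in WT cells. The ratio was -2.27 under doxorubicin (q = 0.000186) in the authors' deposited table. In control SLBP stood at 52.21 (KO) and 57.65 (WT) FPKM, so both doxorubicin levels were far below control and the ratio rests on low values.

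Of 24 E2F, RB and G1/S regulators, 13 rose and 6 fell under cisplatin, 4 rose and 6 fell under doxorubicin (20 tested), 6 rose and 8 fell under tunicamycin, and 4 rose and 10 fell in control. CCNE1, a cyclin that drives entry into S phase, was listed at 42.8 (KO) and 20.8 (WT) FPKM under cisplatin, 0.586 (KO) and 0.269 (WT) under doxorubicin, 6.12 (KO) and 4.604 (WT) under tunicamycin and 14.5 (KO) and 9.71 (WT) in control. It rose under cisplatin and tunicamycin and in control, by 1.04 under cisplatin (q = 0.000167), 0.41 under tunicamycin (q = 0.0294) and 0.58 in control (q = 0.000777) in the authors' deposited tables. TFDP1, the partner of E2F factors, and RB1, which restrains them, both rose in all 4 tables and both lie on chromosome 13, TFDP1 with 1.0 under cisplatin (q = 0.000167), 1.05 under doxorubicin (q = 0.000186), 1.05 under tunicamycin (q = 0.000173) and 1.08 in control (q = 0.000213) in the authors' deposited tables. E2F1, CCND1 and CDKN1A fell in all 4, CCND1 with -0.82 under cisplatin (q = 0.000167), -1.56 under doxorubicin (q = 0.000186), -0.64 under tunicamycin (q = 0.000173) and -0.25 in control (q = 0.000213) in the authors' deposited tables. Of 18 G2/M genes, 2 rose and 15 fell under cisplatin, 1 rose and 7 fell under doxorubicin, 0 rose and 16 fell under tunicamycin, and 1 rose and 13 fell in control. Among all tested genes of at least 5 FPKM the shares called lower were 28.99%, 27.0%, 24.8% and 24.6% in the same order. Their median ratio of KO over WT was -0.33 under cisplatin, -0.26 under doxorubicin, -0.31 under tunicamycin and -0.45 in control. That of the 41 replication genes was 0.16, 0.08, -0.11 and -0.08. The difference between the lists was not tested. Under doxorubicin the G2/M genes had a median response of -2.77 in KO and -2.73 in WT cells, and 17 of 18 were at least 1.5-fold lower than control in each.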

How the data were processed

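RNA-seq was deposited as 4 tables, 1 per treatment, each comparing KO with WT cells over 60658 genes. Per the labels, total RNA was made into mRNA libraries and sequenced as paired reads of 100 bases. The submitters' processing notes name the build hg38, the tools Cuffdiff and Cufflinks, STAR 2.5.3, Trimmomatic 0.35 and FastQC 0.11.5. For tool roles, annotation release and strandedness no source used here gives a statement. Per the file headers, the authors deposited 1 FPKM value per group from Cuffdiff. In the deposited log2 values KO FPKM is divided by WT FPKM without a pseudocount, as recomputation showed to within 4.64e-05. The p-values and q-values deposited by the authors measure the spread that Cuffdiff estimated, and the smallest p is 5e-05. The score deposited by the authors, the Cuffdiff test statistic, was not used in a result. Which column is WT and which KO was read from the table names and the group codes inside.

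No value per library was given, so depth, standard deviations and refits could not be had, and the authors' test was used for KO against WT. Drug responses used a pseudocount of 1 FPKM and no test. Positions, spans and GC content came from GENCODE 29 and promoters from RefSeq. Windows of 10 Mb counted as shifted where at least 10 genes had a median of at least 0.3 in size with 1 sign in all 4 tables. The step was tested on simulated data with shifts well above that bound and independent noise. That test does not cover windows near the bound. Python 3.11.15, pandas 2.3.3, numpy 2.4.6 and scipy 1.17.1 were used. Named with values in all groups were genes called in 1 direction in all tables, the 3 largest calls per table and direction, genes called in opposite directions and the 3 highest and lowest responses per drug and genotype; a few others were named after their values were seen. The genes, the lists and these rules were chosen with earlier results of these data known.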

Additional observations from a re-analysis of the deposited data

Results flagged for a closer look

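Several replication genes were called in opposite directions under a drug and in control in the authors' deposited tables. The values are the log2 ratio of KO over WT under the drug minus that in control. The difference itself was not tested in any of them. For cisplatin the shift was 0.92 for GMNN, -0.49 for POLD1 and 0.52 for TYMS. For doxorubicin it was -0.55 for MCM3, 0.29 for RRM1 and 0.45 for TYMS. For tunicamycin it was -0.28 for MCM3, -0.83 for ORC1, -0.68 for CDT1, -0.44 for POLD1 and 0.35 for TYMS. The TYMS shift had the same sign under each drug, and all 3 TYMS shifts use the same control groups, where TYMS stood at 172 (KO) and 209 (WT) FPKM. TYMS overlaps ENOSF1 on the opposite strand, a gene of up to 16.4 FPKM, and the GC content that moves with such shifts is 49.8% for TYMS, 43.6% for GMNN and 65.0% for POLD1. After the median ratio of coding genes of like GC content was subtracted, the shifts for cisplatin were 0.72 for GMNN, -0.18 for POLD1 and 0.54 for TYMS. Those for doxorubicin were then -0.5 for MCM3, 0.14 for RRM1 and 0.37 for TYMS. Those for tunicamycin were -0.25 for MCM3, -0.81 for ORC1, -0.44 for CDT1, -0.2 for POLD1 and 0.32 for TYMS.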

How the results depend on the processing

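A call at q of at most 0.05 with a ratio of at least 1.5-fold was made for 3 genes under cisplatin, 7 under doxorubicin, 4 under tunicamycin and 5 in control, in place of 26, 24, 26 and 22, so most calls were small. At q of at most 0.01, 18 of the 98 calls were lost, 8 of the 26 under tunicamycin among them. Centring ratios of KO over WT on the median gene, leaving out genes in shifted windows and a minimum of 5 FPKM kept each count within 1.5 times. Centring left the authors' q-values as they were, and leaving out the 3 genes in shifted windows could remove at most 3 calls per table. These settings could therefore hardly move the counts that far. Each symbol was found once, so another choice among repeated symbols could change nothing. Subtracting the median ratio of coding genes of like GC content (20 bins), chosen after seeing the data, turned the sign of 1 call, TYMS under tunicamycin, to -0.01. Other called ratios shrank or grew without a turn of sign. MCM5 under doxorubicin went from 0.25 to 0.01, FEN1 in control from 0.23 to 0.07 and RFC3 in control from 0.75 to 0.90. The q-values were not recomputed, so whether such calls would stand was not tested. Centred on genes of at least 5 FPKM in both groups, the median response was 0.05 (KO) and 0.06 (WT) under cisplatin in place of 0.20 (KO) and 0.17 (WT), and in WT cells -0.34 under doxorubicin in place of -0.53 and -0.33 under tunicamycin in place of -0.44. With no replicate spread, a move of 0.1 log2 was counted as a change. A pseudocount of 0.1 FPKM moved no median that far. With totals without the 100 highest genes no move was counted as a change. That of WT cells under tunicamycin, to -0.34 from -0.44, lay at the bound. No paired analysis was possible because the tables hold 1 value per group, and leaving out a replicate could not be run for the same reason. Depth per library is unknown, so the precision of low levels, such as the 11 (KO) and 10 (WT) genes below 5 FPKM under doxorubicin, cannot be stated.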

Other observations

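Cyclin and checkpoint genes beside the 41 replication genes gave further values. CCNE2, the second cyclin E gene, stood at 55.6 (KO) and 33.9 (WT) FPKM under cisplatin, 2.46 (KO) and 2.15 (WT) under doxorubicin, 8.52 (KO) and 9.67 (WT) under tunicamycin and 17.4 (KO) and 15.2 (WT) in control. Its authors' deposited ratio was called under cisplatin alone, at 0.72 under cisplatin (q = 0.000167). CDC25A, a phosphatase that activates S-phase kinases, was likewise called under cisplatin alone, at 47.1 (KO) and 35.2 (WT) FPKM with 0.42 under cisplatin (q = 0.000167) in the authors' deposited table. CCNA2, the cyclin of S phase and G2, stood at 65.8 (KO) and 56.6 (WT) FPKM under cisplatin, 1.38 (KO) and 2.68 (WT) under doxorubicin, 40.7 (KO) and 47.7 (WT) under tunicamycin and 66.5 (KO) and 92.5 (WT) in control. It rose under cisplatin and fell in the other 3 tables, with 0.22 under cisplatin (q = 0.000167), -0.96 under doxorubicin (q = 0.000186), -0.23 under tunicamycin (q = 0.000173) and -0.48 in control (q = 0.000213) in the authors' deposited tables. UHRF1, which guides maintenance methylation behind the fork, stood at 41.03 (KO) and 45.1 (WT) FPKM under cisplatin and 50.4 (KO) and 29.9 (WT) FPKM in control, with -0.14 under cisplatin (q = 0.000167) and 0.76 in control (q = 0.000213) in the authors' deposited tables. Whether these ratios differ between treatments was not tested.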
